A study of Mus musculus with 9 samples.

Results

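Mixl1, Gsc, Lhx1, Foxa2, Sox17, Gata4, Hhex, Cer1, Noto and Chrd mark the anterior end of the primitive streak and the tissues that leave it first. These 10 genes were taken by symbol from the 24736 genes of the expression table, and all 10 had a count in at least 1 library. They were followed across 9 RNA-seq libraries of mouse caudal epiblast-like cells, or CEpiLCs, which stand in culture for the posterior epiblast that builds the trunk. The groups were WT (the XY HM1 TetON embryonic stem cell line), CdxKO (Cdx1/2/4-/-) and T/BraKO (T/Bra-/-), with 3 biological replicates each. Both mutants derive from the WT line, and the labels name no separate lines within a genotype, so a property of 1 line and the effect of its mutation cannot be told apart. All 9 cultures received bFGF at 10 ng/ml and 5 uM LGK974, which inhibits Porcupine and thereby the secretion of WNT ligands. The GSK3 inhibitor CHIR99021, which activates WNT signalling, was present for the last day, and RNA was taken at 72 h (day 3). The stem cells had been grown on fibroblast feeders, which were removed by plating before differentiation.

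In the gastrulating embryo, cells at the anterior end of the streak see high Nodal and WNT signalling and turn on a small circuit of transcription factors. Mixl1, Gsc and Lhx1 act in the streak and its anterior mesendoderm. Foxa2, Sox17, Gata4 and Hhex act in the endoderm, where Cer1 encodes a secreted antagonist of Nodal and BMP. Noto is a homeobox gene of the node and notochord, and Chrd encodes a BMP antagonist released by the same tissues. More posterior streak cells, which CEpiLCs model, depend on T and the Cdx genes.

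The cultures carried caudal epiblast markers at high levels, with a summed TPM (a level scaled for transcript length and library size) of the 11 markers between 786 and 1399 in every library. Total expected counts per library ranged from 25124337 to 34705355. T was called lower in T/BraKO than in WT, and Cdx1 and Cdx2 lower in CdxKO than in WT. Cdx4 had 118 ± 52.2 normalised counts (SD, n = 3) in WT and 1.64 ± 0.338 in CdxKO. Same-numbered replicates of different genotypes deviated from their group means together. Each comparison was therefore read both without and with a term for the replicate number.

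Promoter windows of 300 bases, from 250 before to 50 after a RefSeq start (GRCm38.p6), were held for 7 of the 10 genes and made up 9 windows, because Foxa2 has 3 annotated starts. Mixl1, Sox17 and Gata4 were not matched. The windows were searched on both strands for a T-box half-site (AGGTGT), a CDX core (TTTAT), a TCF/LEF core (CTTTGA) and a SOX core (ACAAAG). Read on opposite strands, the TCF/LEF and SOX cores share the letters CTTTG and differ in the last, so that no stretch was counted for both. The T-box half-site was in 0 of the 9 windows, against 13.7% of 32851 windows genome-wide. The CDX core was in 4 windows (Gsc, Foxa2, Hhex and Chrd), against 40.0% genome-wide. The TCF/LEF core was in 2 windows (Foxa2 and Noto), against 16.0%, and the SOX core in 1 (Foxa2), against 18.7%. The Foxa2 window with these matches (chr2:148045415-148045714, minus strand) is shown because Foxa2 was the one gene of the 10 with a called difference between genotypes, and the window of its relative Foxa1 (chr12:57546062-57546361, minus strand) because Foxa1 was called between the mutants as well. Capitals mark the matches to the CDX, TCF/LEF and SOX cores. A match is a run of letters and not a measured binding site.
Foxa2: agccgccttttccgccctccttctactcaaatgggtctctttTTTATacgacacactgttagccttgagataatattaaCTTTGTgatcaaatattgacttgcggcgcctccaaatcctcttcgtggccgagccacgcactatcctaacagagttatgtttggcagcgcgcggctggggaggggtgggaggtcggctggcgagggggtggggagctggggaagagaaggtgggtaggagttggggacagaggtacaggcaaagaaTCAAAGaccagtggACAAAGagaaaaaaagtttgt
Foxa1: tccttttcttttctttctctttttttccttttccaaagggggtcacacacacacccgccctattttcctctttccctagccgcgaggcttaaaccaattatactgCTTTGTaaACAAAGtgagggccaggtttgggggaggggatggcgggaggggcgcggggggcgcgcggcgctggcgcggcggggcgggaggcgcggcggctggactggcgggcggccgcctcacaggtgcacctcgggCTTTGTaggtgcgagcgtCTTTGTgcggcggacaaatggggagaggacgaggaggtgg
The Foxa2 window held 1 CDX, 1 TCF/LEF and 2 SOX matches, whereas the Foxa1 window held 4 SOX matches and none of the other cores.

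All 10 genes were expressed at low to moderate levels in WT. Mean TPM ran from 14.4 ± 8.62 (SD, n = 3) for Mixl1 through 7.84 ± 3.58 for Foxa2 and 7.27 ± 2.04 for Hhex to 0.217 ± 0.040 for Noto. Chrd (4.81 TPM), Lhx1 (3.66), Gsc (1.95) and Cer1 (1.63) lay between, and Gata4 (0.630) and Sox17 (0.377) were under 1 TPM. No neighbours in this order were separated in WT, since the ranges of all 9 neighbouring pairs overlapped. Mixl1 was also first in CdxKO (17.5 ± 12.2 TPM) and T/BraKO (8.51 ± 3.93). Foxa2 stood second in WT and CdxKO but behind Hhex and Chrd in T/BraKO, at 3.56 ± 3.15 TPM. In both mutants 8 of 9 neighbouring pairs overlapped, and the exception was Sox17 over Noto.

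No gene of the 10 was called in any genotype comparison without the replicate term (DESeq2, adjusted p of at most 0.05 over all genes). In CdxKO against WT the count was 0 of 10, with 0.693% of all tested genes called, and 0 of the 10 had an unadjusted p under 0.05. In T/BraKO against WT it was also 0 of 10, with 1.08% of all genes called and none of the 10 under 0.05 unadjusted. In CdxKO against T/BraKO it was 0 of 10, with 3.48% of all genes called, and Foxa2 alone was under 0.05 unadjusted. By the edgeR quasi-likelihood test 0 of the 9 genes that passed its expression filter were called in each comparison, where 0.11%, 0.385% and 1.63% of all genes were, and the counts under 0.05 unadjusted were 0, 0 and 1. Median log2 fold changes of the 10 were 0.03, -0.13 and 0.11, against medians between -0.01 and 0 over all tested genes. These are bulk libraries, in which fewer cells of a type and less RNA per cell cannot be told apart.

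Foxa2 (GRCm38 chromosome 2, 148042877 to 148046969, minus strand) encodes the forkhead factor required for node, notochord and definitive endoderm. Its normalised counts in replicates 1, 2 and 3 were 128, 220 and 348 in WT, 291, 155 and 555 in CdxKO and 55.2, 46.7 and 215 in T/BraKO. T/BraKO replicates 1 and 2 were the lowest of the 9 libraries, whereas T/BraKO replicate 3 fell within the WT and CdxKO ranges, so the groups overlapped. Without the replicate term the log2 fold change of T/BraKO against WT was -1.13 (SE 0.765, adjusted p 1). Between CdxKO and T/BraKO it was 1.66 (SE 0.764, adjusted p 0.349), and between CdxKO and WT it was 0.53 (SE 0.762). Within each replicate number Foxa2 was lower in T/BraKO than WT, 2.33-fold, 4.70-fold and 1.62-fold in numbers 1, 2 and 3. It was higher in CdxKO than in T/BraKO 5.27-fold, 3.33-fold and 2.58-fold, again in 3 of 3. Against WT, CdxKO was higher in 2 numbers and lower in 1.

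With the replicate number as a block, Foxa2 was called lower in T/BraKO than in WT (DESeq2 log2 fold change -1.40, SE 0.431, adjusted p 0.0187, 95% interval of the fold 0.211 to 0.682). This was 1 of the 10 genes, where 9.68% of all tested genes were called in either direction and 4.85% lower. Gsc, Sox17, Cer1 and Noto received no adjusted p in that fit. Foxa2 was also called higher in CdxKO than in T/BraKO (1.83, SE 0.430, adjusted p 4.21e-04), a 3.55-fold difference with a 95% interval of 1.98 to 6.37, again 1 of the 10, where 14.6% of all genes were called and 7.75% higher. The edgeR test with the same block called Foxa2 in both comparisons (-1.29, adjusted p 0.0286 and 1.74, adjusted p 0.00383), where 5.2% of all genes were called lower in the one and 10.2% higher in the other. CdxKO and WT were not separated (0.43, 95% interval -0.40 to 1.26), with 0 of 10 genes called where 5.31% of all genes were. Without the block the calls depended on T/BraKO replicate 3. When it was left out the T/BraKO against WT difference was -2.19 (adjusted p 0.0063) and the CdxKO against T/BraKO difference 2.71 (adjusted p 3.83e-05). Replicate 3 was the highest Foxa2 library of every genotype, so leaving out that of T/BraKO alone favoured wider differences and both calls.

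**Figure D1:**
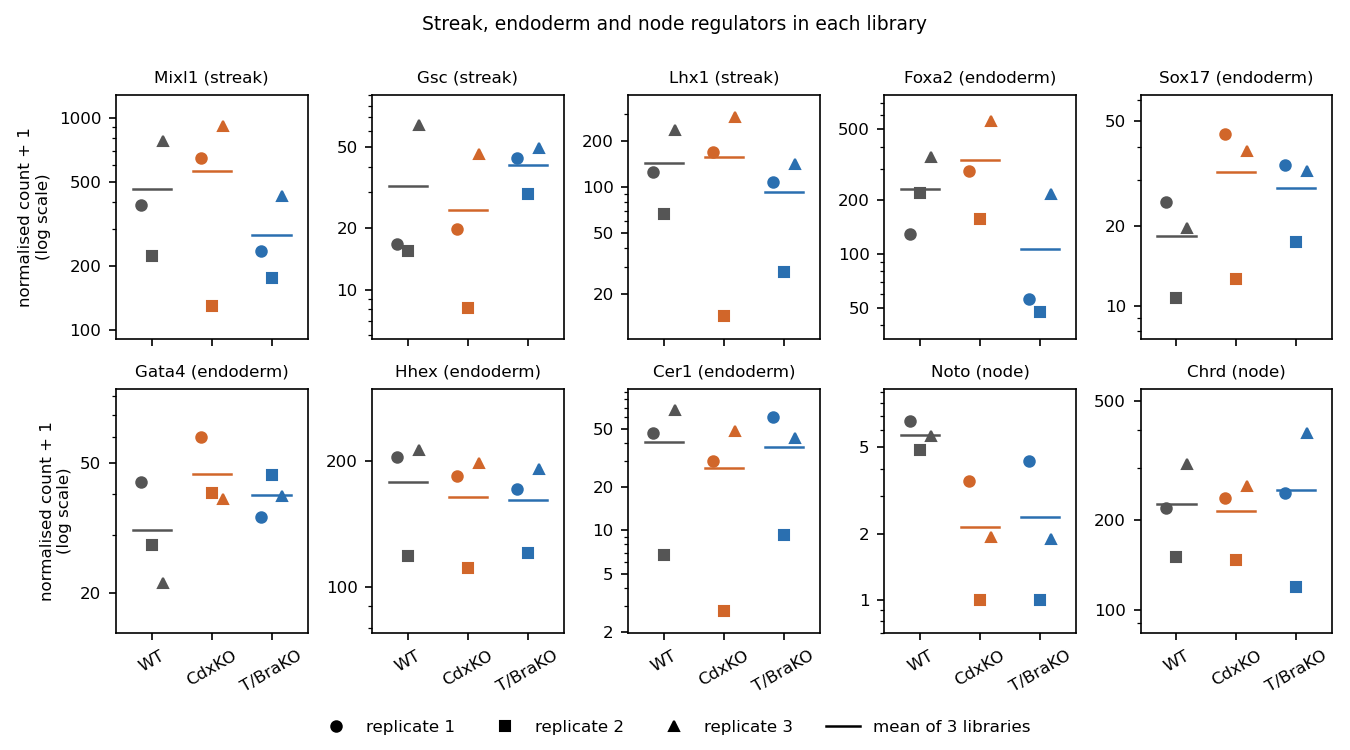
Normalised counts plus 1 of the 10 genes (log axes that differ between panels) in WT, CdxKO and T/BraKO libraries, with a symbol for each replicate number and a line at the mean of 3 libraries. Replicate 2 (square) is the lowest library of its genotype in 3 of 3 groups for 8 genes, and the Foxa2 panel shows T/BraKO replicates 1 and 2 below every other library. Noto, among the 8, is close to the floor.

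Markers of other cells were also called in the same comparisons. With the block, 5.31% of all tested genes were called in CdxKO against WT, in either direction. The share was 9.68% in T/BraKO against WT (4.85% lower) and 14.6% in CdxKO against T/BraKO (7.75% higher). The counts for each marker list below come from few genes and carry no test. With the block, 3 of the 6 feeder fibroblast markers tested were called lower in T/BraKO than WT (Col1a1, Col1a2 and Postn, collagens and a matrix protein), and the same 3 of 7 were called higher in CdxKO than T/BraKO, while Thy1 was lower. In CdxKO against WT, Col1a1 and Col1a2 were called higher and Thy1 lower among 6 tested. The summed TPM of the 7 feeder markers was 33.9 to 59.4 for WT, 41.8 to 77.9 for CdxKO and 33.0 to 54.5 for T/BraKO, and all 7 were detected in each group. Of 10 cardiac and lateral mesoderm markers, Isl1 and Kdr were called lower in T/BraKO than WT among 4 tested, and Hand1, Isl1 and Kdr higher in CdxKO than T/BraKO among 7 tested. Their summed TPM was 14.9 to 17.3, 20.1 to 23.0 and 10.4 to 12.3 in the same order of groups. Of 12 extraembryonic endoderm markers, 1 of 7 tested was called lower in T/BraKO than WT (Pdgfra), and 5 of 9 were called higher (Apob, Cubn, Pdgfra, Sparc and Col4a1) and 1 lower (Rhox5) in CdxKO than T/BraKO. Sparc and Col4a1 were called higher and Rhox5 lower in CdxKO than WT among 7 tested. The summed TPM of the 12 markers was 364 to 480, 383 to 555 and 359 to 406. The list was uneven in level. Afp had at most 8.78, Apoa1 at most 2.68 and Ttr at most 0.967 normalised counts in any library, whereas Cubn had 58.0 to 64.0 in CdxKO against 26.0 to 30.2 in T/BraKO, and Dab2 261 to 447 against 360 to 388. Of 5 epiblast markers, Pou5f1 and Dnmt3b were called higher in T/BraKO than WT with the block, and Pou5f1, Fgf5 and Dnmt3b lower in CdxKO than T/BraKO, while Pou5f1 was also called higher in CdxKO than WT. Their summed TPM was 1114 to 1781 for WT, 1322 to 1923 for CdxKO and 1512 to 2190 for T/BraKO. Of 11 caudal epiblast markers, which include T and the Cdx genes, 5 were called higher and 3 lower in T/BraKO than WT, and 2 higher and 6 lower in CdxKO than T/BraKO. In CdxKO against WT 0 were called higher and 6 lower. The part of these cells in the Foxa2 difference was not tested.

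**Figure D2:**
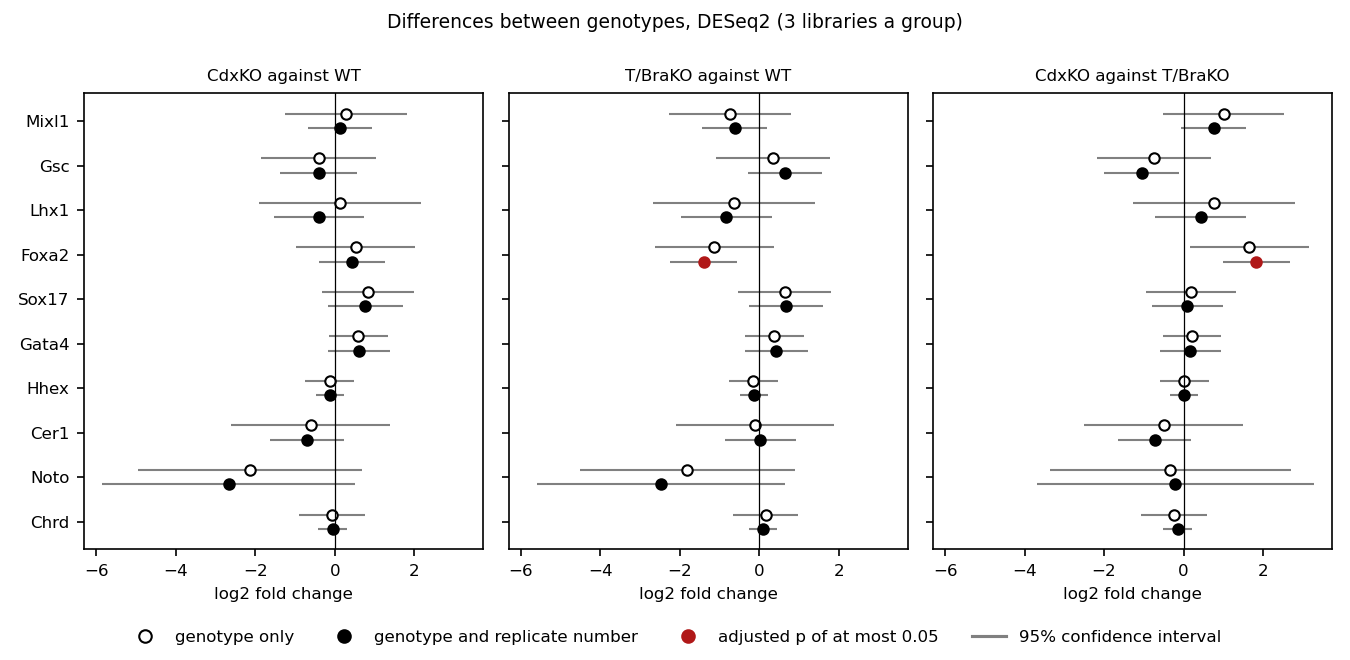
DESeq2 log2 fold changes of the 10 genes in 3 comparisons, with 95% confidence intervals, fitted with genotype alone (open) or with genotype and replicate number (filled). Foxa2 with the replicate term is the only gene with an adjusted p of at most 0.05 (red), at -1.40 in T/BraKO against WT and 1.83 in CdxKO against T/BraKO.

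The anterior streak factors Mixl1, Lhx1 and Gsc were not called in the fits of all libraries. Whether their differences departed from that of Foxa2 was not tested. In T/BraKO against WT with the block (DESeq2, log2 scale), the confidence intervals of Mixl1 (-1.43 to 0.19) and Lhx1 (-1.95 to 0.31) overlapped that of Foxa2 (-2.24 to -0.55). The interval of Gsc (-0.28 to 1.58) did not, and Gsc received no adjusted p in that fit. Mixl1 (chromosome 1, 180693043 to 180697034), a paired-type homeobox gene switched on throughout the streak, had normalised counts of 387, 222 and 777 in WT, 646, 129 and 911 in CdxKO and 235, 175 and 427 in T/BraKO. T/BraKO was below WT within 3 of 3 replicate numbers, by 1.65-fold, 1.27-fold and 1.82-fold, but the groups overlapped. The difference was -0.73 without the block (SE 0.780, adjusted p 1) and -0.62 with it (SE 0.414, adjusted p 0.410). CdxKO was higher than T/BraKO in numbers 1 and 3 and lower in number 2. Replicate number 2 was left out of the blocked fit in an alternative chosen after seeing the data, with 1 library fewer in each group. Mixl1 was then called in both comparisons with T/BraKO (-0.80, adjusted p 1.55e-04 against WT and 1.28, adjusted p 1.64e-12 for CdxKO against T/BraKO). Number 2 was the only number in which CdxKO was below T/BraKO, so leaving it out favoured the call between the mutants. It also had the smallest fold between WT and T/BraKO (1.27), so leaving it out favoured that call too. Without number 1 or 3 instead, the blocked DESeq2 fit called Mixl1 in neither comparison. Adjusted p was then 0.851 and 0.942 for T/BraKO against WT and 0.874 and 0.852 between the mutants.

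Lhx1 (chromosome 11, 84518284 to 84525535), a LIM homeobox gene of the anterior mesendoderm needed for head formation, followed the same libraries. Its normalised counts were 125, 65.8 and 235 in WT, 169, 13.4 and 284 in CdxKO and 107, 26.6 and 141 in T/BraKO. T/BraKO was lower than WT in 3 of 3 numbers, yet all 3 groups overlapped. The 95% interval of the fold in T/BraKO against WT was 0.156 to 2.67 without the block and 0.258 to 1.24 with it. Between CdxKO and WT the sign turned with the block, from 0.13 to -0.39. Without replicate number 2 the blocked fit, chosen after seeing the data, called Lhx1 higher in CdxKO than T/BraKO (0.85, adjusted p 0.0166). Number 2 was again the only number in which CdxKO was below T/BraKO, so leaving it out favoured this call. Without number 1 or 3 instead, the blocked DESeq2 fit did not call Lhx1 between the mutants (adjusted p 0.961 and 0.984).

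Gsc (chromosome 12, 104471209 to 104473330), the homeobox gene of the organiser and prechordal plate, was instead highest in T/BraKO in most replicates. Its normalised counts were 15.8, 14.5 and 63.4 in WT, 18.8, 7.14 and 45.1 in CdxKO and 43.0, 28.4 and 48.4 in T/BraKO. T/BraKO was the highest genotype in numbers 1 and 2, and WT in number 3. CdxKO was below T/BraKO in 3 of 3 numbers, by 2.29-fold, 3.97-fold and 1.07-fold. With the block this difference was -1.06 (SE 0.485) with an unadjusted p of 0.0295 and an adjusted p of 0.138, and was therefore not called.

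Of the remaining endoderm genes, Sox17 and Gata4 were slightly higher in both mutants than in WT, and neither difference was called. Sox17 (chromosome 1, 4490931 to 4497354), the SRY-related factor of definitive endoderm, had normalised counts of 23.6, 9.67 and 18.6 in WT, 43.9, 11.6 and 37.6 in CdxKO and 33.1, 16.5 and 31.4 in T/BraKO. Both mutants exceeded WT in 3 of 3 numbers, with log2 fold changes of 0.84 (95% interval -0.33 to 2.00) in CdxKO and 0.64 (-0.52 to 1.81) in T/BraKO. With the block these were 0.77 (-0.16 to 1.71) and 0.67 (-0.26 to 1.61). By edgeR with the block the unadjusted p was 0.0160 and 0.0402 (adjusted p 0.138 and 0.165), where 20.8% and 26.8% of all genes were under 0.05 unadjusted. Gata4 (chromosome 14, 63198922 to 63271692), a zinc finger factor of endoderm and heart, had 42.8, 27.1 and 20.5 in WT, 58.9, 39.3 and 37.6 in CdxKO and 33.1, 44.9 and 38.6 in T/BraKO. CdxKO exceeded WT in 3 of 3 numbers and T/BraKO in 2 of 3, with differences of 0.59 (-0.16 to 1.33) and 0.38 (-0.37 to 1.13). With the block the Gata4 differences were 0.61 (-0.17 to 1.38) and 0.44 (-0.35 to 1.22).

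Hhex, the homeobox gene of anterior endoderm and liver, was nearly even across genotypes. Hhex (chromosome 19, 37434810 to 37440731) had normalised counts of 204, 118 and 212 in WT, 183, 110 and 197 in CdxKO and 171, 120 and 190 in T/BraKO. Its fold in CdxKO against WT was 0.917 with a 95% interval of 0.598 to 1.41, narrowing to 0.717 to 1.18 with the block. For T/BraKO it was 0.902 (0.588 to 1.38, and 0.714 to 1.17 with the block). Cer1 (chromosome 4, 82881751 to 82885148) varied widely within genotypes, with 46.1, 5.80 and 66.2 in WT, 28.8, 1.79 and 47.0 in CdxKO and 59.6, 8.24 and 42.2 in T/BraKO. CdxKO was below WT in 3 of 3 numbers, but the difference was -0.61 (95% interval -2.60 to 1.39) without the block and -0.70 (-1.63 to 0.23) with it.

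The node and notochord genes differed in how much could be measured. Chrd (chromosome 16, 20733127 to 20742384) had normalised counts of 218, 149 and 307 in WT, 237, 146 and 260 in CdxKO and 246, 118 and 392 in T/BraKO. The blocked 95% interval of its fold was 0.751 to 1.24 in CdxKO against WT and 0.832 to 1.37 for T/BraKO. Noto (chromosome 6, 85423886 to 85428877) was close to the floor, with 5, 4 and 5 raw counts in WT, 2, 0 and 1 in CdxKO and 3, 0 and 1 in T/BraKO. It was the only gene of the 10 whose WT libraries all lay above those of a mutant, where 8.92% of the 18902 genes with a count had groups that did not overlap in CdxKO against WT and 9.24% had such groups for T/BraKO. In CdxKO against T/BraKO 0 of the 10 were separated, where 13.3% of genes were. Scaled for library size, the summed counts of 14 in WT and 3 in CdxKO gave a ratio of 4.64 (exact 95% interval 1.3 to 25.2), and 14 against 4 in T/BraKO gave 3.64 (1.14 to 15.2). Both intervals cover counting error only, and neither difference was called (log2 fold changes of -2.13, SE 1.44, and -1.80, SE 1.38).

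Across the 10 genes the replicate number separated libraries more clearly than the genotype did. Replicate 2 was the lowest library in 3 of 3 genotypes for Mixl1, Gsc, Lhx1, Sox17, Hhex, Cer1, Noto and Chrd, of which Noto was close to the floor. Replicate 3 was the highest in 3 of 3 for Mixl1, Gsc, Lhx1, Foxa2, Hhex and Chrd. The shares of all genes with these orders were not computed. The labels do not say what a replicate number stands for. The share of counts from the ribosomal transcript Rn45s also followed it, at 1.69% to 4.21% in replicates 1, 0.492% to 0.992% in replicates 2 and 0.343% to 0.699% in replicates 3, and was lower in replicate 3 than in replicate 2 of each genotype. Its part in the replicate difference was not tested. In a fit with genotype and number, added after seeing the data, 8 of the 9 genes tested were called higher in replicate 3 than in replicate 2 (DESeq2), where 21.8% of all genes were. Cer1 had the widest difference (log2 fold change 3.38, SE 0.534, adjusted p 3.92e-09), followed by Lhx1 (2.71, SE 0.582), Mixl1 (1.90, SE 0.413) and Gsc (1.83, SE 0.483). Foxa2 (1.53), Chrd (1.2), Sox17 (1.19) and Hhex (0.78) followed, and Gata4 was the exception at -0.22 (SE 0.396). Gata4 was below replicate 2 in replicate 3 of all 3 genotypes.

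The same difference within single genotypes was wide. Lhx1 was 21.2-fold higher in CdxKO replicate 3 than in CdxKO replicate 2, against 3.57-fold in WT and 5.30-fold in T/BraKO. Cer1 was 26.3-fold higher in CdxKO, 11.4-fold in WT and 5.11-fold in T/BraKO. Hhex stayed between 1.58-fold and 1.79-fold in all 3. Replicate 1 was also above replicate 2, with 6 of 9 genes called (Mixl1, Lhx1, Sox17, Hhex, Cer1 and Chrd) where 16.6% of all genes were called higher. Between replicates 3 and 1, Foxa2 alone was called (1.43, SE 0.427, adjusted p 0.00822), where 8.03% of all genes were called higher.

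**Figure D3:**
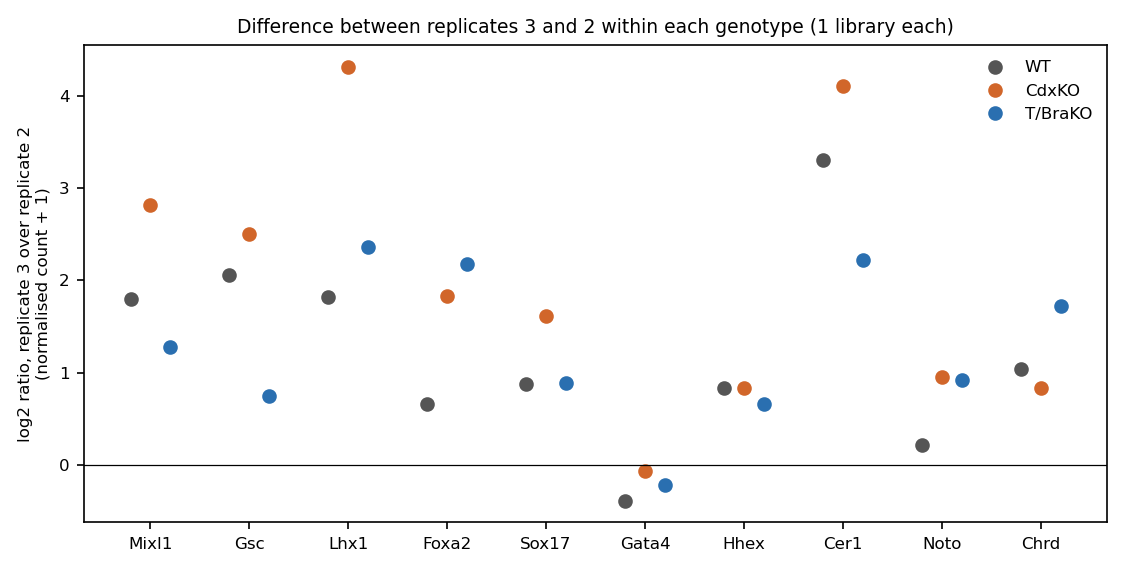
Log2 ratio of normalised count plus 1 in replicate 3 over replicate 2, computed within WT, CdxKO and T/BraKO from 1 library each. Points of 9 genes lie above 0 in all 3 genotypes, up to 4.31 for Lhx1 in CdxKO, and the Gata4 points lie below 0.

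Upstream of these genes, Nodal and WNT signals act through Eomes and the SMAD and FOXH1 factors. Of 15 streak inputs and partners, 0 were called in CdxKO against WT without the block, and Fgf8 alone was called in the other comparisons. In these fits 0.693% of all genes were called in CdxKO against WT, 1.08% in T/BraKO against WT and 3.48% between the mutants. Fgf8, the ligand that moves cells out of the streak, had 857, 642 and 677 normalised counts in WT, 547, 317 and 556 in CdxKO and 195, 233 and 309 in T/BraKO. CdxKO libraries all lay below WT libraries, and T/BraKO libraries all lay below both. The log2 fold change was -1.56 (SE 0.256, adjusted p 5.01e-07) for T/BraKO against WT and 0.94 (SE 0.257, adjusted p 0.01) for CdxKO against T/BraKO. With the block, 4 of 14 tested were called higher in T/BraKO than in WT (Tdgf1, Eomes, Wnt3 and Evx1) and 2 lower (Fgf4 and Fgf8). For CdxKO against WT, 2 of 15 were called higher (Wnt3 and Furin) and 2 lower (Fgf4 and Fgf8). Both mutants were set against the same 3 WT libraries. Between the mutants, 2 of 15 were called higher in CdxKO (Fgf8 and Furin) and 5 lower (Tdgf1, Foxh1, Smad4, Eomes and Evx1). With the block, 9.68% of all genes were called in T/BraKO against WT, in either direction. The share was 5.31% in CdxKO against WT and 14.6% between the mutants. The same shares without and with the block apply to the gene lists in the paragraphs below.

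Eomes, the T-box gene that drives early mesendoderm, went opposite to Foxa2 in the blocked fit. Its normalised counts were 218, 165 and 520 in WT, 273, 131 and 511 in CdxKO and 455, 511 and 1083 in T/BraKO, so that T/BraKO was the highest genotype within each number. The log2 fold change of T/BraKO against WT was 1.18 (SE 0.671, adjusted p 1) without the block and 1.26 (SE 0.171, adjusted p 2.81e-11) with it. Without the block the value ran from 0.68 without T/BraKO replicate 3 to 1.83 without WT replicate 3, where it was called (adjusted p 0.0317). Evx1, a homeobox gene of the posterior streak, had 739, 269 and 912 in WT, 688, 263 and 734 in CdxKO and 1037, 623 and 1373 in T/BraKO. It was called higher in T/BraKO than in WT with the block (0.75, SE 0.128, adjusted p 3.01e-07) and not without (0.66, adjusted p 1). Leaving out WT replicate 2 lowered the latter value to 0.29, and leaving out WT replicate 3 raised it to 1.00. Nodal was not called in any comparison in either fit, with a mean of 577 ± 310 normalised counts (SD, n = 3) for WT, 651 ± 347 for CdxKO and 720 ± 215 for T/BraKO.

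Few other endoderm genes were called. Of 11 listed, Foxa1 alone was called without the block, higher in CdxKO than in T/BraKO (1.89, SE 0.531, adjusted p 0.0146). Foxa1, a forkhead gene closely related to Foxa2, had 40.5, 12.6 and 16.8 normalised counts in WT, 55.2, 35.7 and 53.6 in CdxKO and 16.5, 8.24 and 14.4 in T/BraKO. All 3 CdxKO libraries lay above all 3 T/BraKO libraries, and WT overlapped both. Its call was lost when CdxKO replicate 1 or 3 or T/BraKO replicate 2 or 3 was left out, and by edgeR (adjusted p 0.110). Foxa3, the remaining gene of this family, was called in neither fit, with a mean of 53.3 ± 3.31 normalised counts (SD, n = 3) for WT, 67.0 ± 7.47 for CdxKO and 45.0 ± 9.72 for T/BraKO. Among the 14 relatives of the 10 genes that were listed, Foxa1 was again the only one called without the block.

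Nog, which encodes a BMP antagonist of the node and notochord, separated all 3 genotypes. Its normalised counts were 138, 210 and 71.8 in WT, 395, 313 and 232 in CdxKO and 48.5, 62.3 and 26.9 in T/BraKO. All CdxKO libraries lay above all WT libraries, which lay above all T/BraKO libraries. Nog was called higher in CdxKO than in T/BraKO (2.77, SE 0.417, adjusted p 6.91e-09) and lower in T/BraKO than in WT (-1.61, SE 0.420, adjusted p 0.0154). The second call was lost by edgeR (adjusted p 0.283) and on leaving out WT replicate 1 or 2 or T/BraKO replicate 1 or 3. With the block Nog was called higher in CdxKO than in WT too (1.25, SE 0.223, adjusted p 2.69e-06). Chrd, the other BMP antagonist of this tissue, was called in none of the 3 comparisons.

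Of the other node and notochord genes, 10 of 11 were in the table, and Nog and Sox9 were called in CdxKO against T/BraKO without the block. Sox9, a SRY-related factor that is also active in notochord, had 315, 204 and 291 normalised counts in WT, 381, 232 and 323 in CdxKO and 185, 102 and 200 in T/BraKO (0.94, SE 0.299, adjusted p 0.0479). This call sat at the threshold, and leaving out 6 of the 9 libraries one at a time removed it. With the block Sox9 was called lower in T/BraKO than WT as well (-0.75, SE 0.163, adjusted p 1.65e-04). Shh, the signal of node and notochord, had at most 5.02 normalised counts in any library. With the block Bicc1, an RNA-binding protein of the node, was called lower in T/BraKO than in WT (-0.34, SE 0.112) and Dnah11, a ciliary dynein, lower in CdxKO than in WT (-1.34, SE 0.338).

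The organiser antagonists did not move one way. Of 10 listed, Nog alone was called without the block. With it, Dkk1, a secreted WNT inhibitor, was called higher in T/BraKO than in WT (1.25, SE 0.381, adjusted p 0.0165), while Lefty2, a secreted Nodal inhibitor, was called lower (-0.71, SE 0.196, adjusted p 0.00563). Dkk1 had 31.5, 7.74 and 60.6 normalised counts in WT and 65.1, 35.7 and 114 in T/BraKO. Lefty2 had 241, 209 and 253 in WT and 169, 109 and 158 in T/BraKO, with no overlap.

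**Figure D4:**
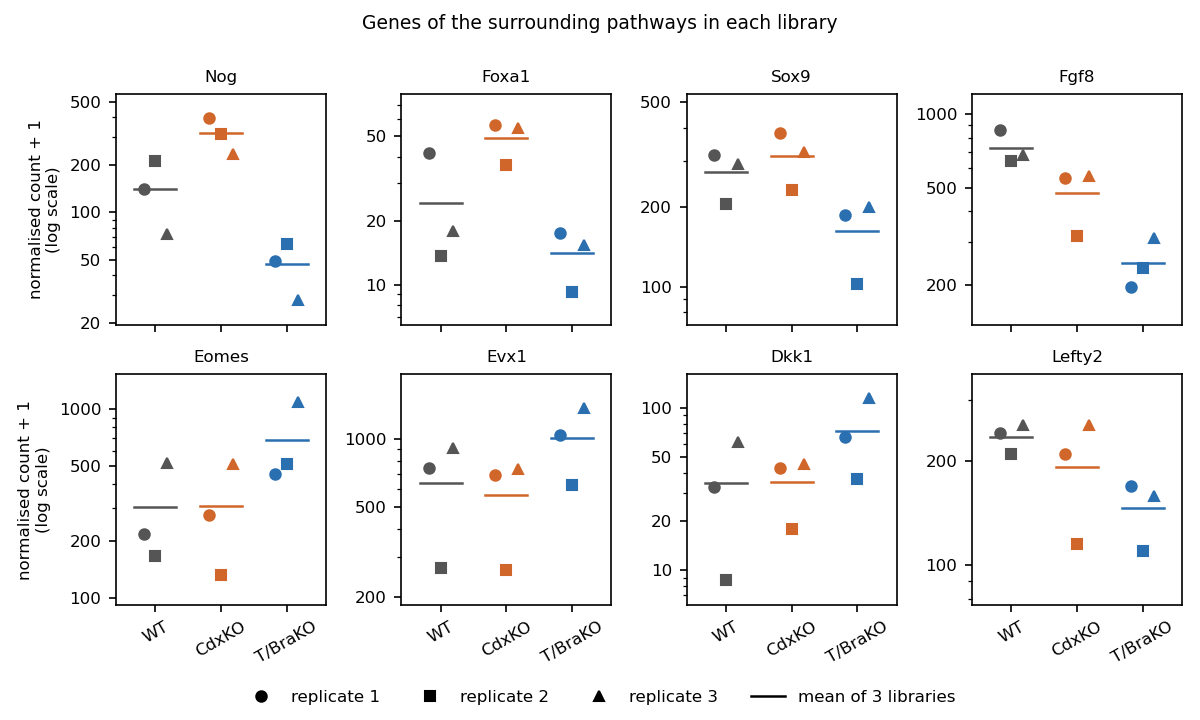
Normalised counts plus 1 (log axes that differ between panels) of 8 pathway genes in WT, CdxKO and T/BraKO libraries, with a symbol for each replicate number and a line at the mean of 3 libraries. Nog falls into 3 separate groups with CdxKO on top, and Fgf8 into 3 with WT on top. Foxa1 separates the mutants, and Eomes, Evx1 and Dkk1 are highest in T/BraKO within each replicate number.

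The genes most alike each of the 10 across libraries were found by Pearson correlation of log2(normalised count + 1) over the 9 libraries, among genes with a mean of at least 50 normalised counts. Foxa2 was most alike Map10 (r = 0.97), Lgalsl (0.97) and Pnpt1 (0.96). Mixl1 and Lhx1 shared Abi3 among their nearest genes (0.97 and 0.96), with Etv1 nearest to Mixl1 (0.97). Cer1 was most alike Adamts19 (0.99), Gsc was most alike Astn2 (0.98), and Fgf5, a marker of the epiblast, was also among the 3 nearest to Gsc (0.96). Hhex was most alike Gpat4 (0.98) and Chrd most alike Akap1 (0.99). The points share genotypes and replicate numbers, so these values describe the 9 libraries and carry no test.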

How the data were processed

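The authors sequenced poly(A) RNA as strand-specific, single-end reads, trimmed them with cutadapt 1.16 and aligned and quantified them with STAR 2.5.2a and RSEM 1.3.0 against RefSeq genes of mm10. The deposited table holds RSEM expected counts, which need not be whole, and TPM, in which the authors' quantification corrects for transcript length. Sample titles gave each library's genotype and number, and every column matched a library.

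Expected counts were rounded and tested in R 4.3.3 with the Wald test of DESeq2 1.42.0, the package named in the study's methods, with genotype as the only term, all 9 libraries, default size factors and unshrunken log2 fold changes. A call is a Benjamini-Hochberg adjusted p of at most 0.05 over all tested genes. Normalised counts are counts divided by size factors, and TPM was used only to compare levels between genes. Alternatives were edgeR 4.0.16 (quasi-likelihood test), TMM factors, keeping genes with 10 counts or more in 3 or more libraries, no independent filtering, the replicate block, fitting only the 6 libraries of a comparison, a threshold of 0.01 and leaving out each library.

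Across 12316 genes with a mean of at least 50 normalised counts, deviations from group means correlated at 0.532 to 0.814 in the 9 same-numbered pairs (mean 0.703) and at -0.340 on average in the 18 others. Because deviations cancel within each group, positive values in same-numbered pairs force negative ones in the others, which add no separate evidence. From the positive values in all 9 same-numbered pairs, the numbers in the titles were taken to pair the libraries. The labels do not say what a replicate number marks beyond a biological replicate, and p-values measure the spread between these libraries. A floor of 3 counts is 0.0864 to 0.119 CPM, and floors and counting intervals cover counting error only.

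The 10 genes, the lists and the tests were chosen with earlier results of these data known. Named genes are the 10, genes of the lists called in a comparison, and for each gene with a mean of at least 20 normalised counts the 3 most alike. Nodal, Shh, Foxa3, Afp, Apoa1, Dab2, Rn45s and Ttr were named outside this rule, after their values were seen. Positions are from GENCODE M21 on GRCm38, counted from 1. Gm37587 overlaps Sox17 and Thpo overlaps Chrd on the other strand, and counting was by strand-specific reads. Scripts were tested on simulated counts.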

Additional observations from a re-analysis of the deposited data

Results flagged for a closer look

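CdxKO and T/BraKO differed in the direct test, which is the test of the difference between the effects of the mutants against the shared WT libraries, for several genes in or around the anterior streak and endoderm set. Without the block (DESeq2) Nog differed by 2.77, Foxa1 by 1.89, Sox9 by 0.94 and Fgf8 by 0.94 on the log2 scale, all higher in CdxKO. Of these, Nog kept its call by edgeR and on leaving out each of the 9 libraries in turn. A further 12 genes differed with the replicate block only, in both directions. Foxa2 (1.83), Trh (0.66), Furin (0.42), Bicc1 (0.40) and Fst (0.40) were higher in CdxKO. Dnah11 (-1.37), Eomes (-1.25), Dkk1 (-1.04), Evx1 (-0.91), Tdgf1 (-0.61), Foxh1 (-0.20) and Smad4 (-0.17) were lower in CdxKO.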

How the results depend on the processing

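With no replicate term, 0 of the 10 genes were called in each comparison under TMM factors, the low-count filter, no independent filtering, the 6 libraries alone, edgeR and the threshold of 0.01. With the replicate block, DESeq2 and edgeR each called Foxa2 and no more, 1 of the 10 for T/BraKO against WT and 1 between the mutants, and the block changed no other call among the 10. Of 231 fold changes of the 10 genes under these alternatives, 224 kept their sign and side of the threshold, 3 changed sign and 4 gained a call. The threshold of 0.01 and the fit without independent filtering reuse the main fold changes, so their signs could not change. At 0.01 no call could be gained either. The sign changes with the block were Lhx1 for CdxKO against WT (-0.39 with DESeq2 and -0.11 with edgeR) and Cer1 for T/BraKO against WT (0.029 with DESeq2). The cause was not tested.

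The number of all genes called was 116 for CdxKO against WT, 205 for T/BraKO against WT and 558 between the mutants. It was 16, 56 and 237 with edgeR, 736, 1237 and 2187 with the replicate block and 663, 1382 and 2724 with both. A threshold of 0.01 left 69 in CdxKO against WT. Leaving out 1 library at a time gave 59 to 140, 118 to 214 and 370 to 630.

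Leaving out 1 library at a time called 0 to 1 of the 10 for T/BraKO against WT and likewise between the mutants, and the 1 was Foxa2 without T/BraKO replicate 3. Foxa2 ranged from -2.19 to -0.72 and from 1.07 to 2.71 in these comparisons. Of 270 fold changes, 239 kept their sign and side of the threshold, 29 changed sign and 2 gained a call. Those that kept both could still move widely, as from -1.38 to -0.0014 for Cer1 in CdxKO against WT. The 270 also include fits that left out a library of the group outside the comparison. In CdxKO against WT the ranges that crossed 0 were -0.26 to 0.88 for Mixl1, -1.30 to 0.65 for Gsc, -0.64 to 0.71 for Lhx1, -0.058 to 0.94 for Foxa2, -0.35 to 0.098 for Hhex and -0.30 to 0.22 for Chrd, and -0.88 to 1.81 for Trh, a listed endoderm gene called only with the block. In T/BraKO against WT they were -0.37 to 0.022 for Hhex, -0.64 to 0.50 for Cer1 and -0.31 to 0.50 for Chrd. In CdxKO against T/BraKO they were -0.0048 to 1.31 for Lhx1, -0.13 to 0.60 for Sox17, -0.018 to 0.33 for Gata4, -0.15 to 0.25 for Hhex, -1.28 to 0.058 for Cer1, -1.55 to 1.25 for Noto, -0.58 to 0.23 for Chrd and -0.74 to 2.12 for Trh.

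In fits chosen after seeing the data, the block was kept and 1 replicate number was left out of every group. Without numbers 1, 2 and 3 in turn, 1, 2 and 1 of the 10 were called for T/BraKO against WT and 1, 3 and 1 between the mutants, and Foxa2 was among them each time. In CdxKO against WT 1 was called without number 2 (Foxa2, 0.93), the only number in which Foxa2 was lower in CdxKO than in WT. All genes called were 176, 526 and 358 for CdxKO against WT, 382, 517 and 428 for T/BraKO against WT, and 854, 1439 and 817 between the mutants. The share of tested genes called was not computed for these fits, so the counts among the 10 have no background share beside them. Sign changes in CdxKO against WT were Mixl1 (-0.21) and Lhx1 (-0.85) without number 1, and Lhx1 (-0.77) and Chrd (0.040) without number 3. In T/BraKO against WT they were Cer1 (0.44) and Chrd (-0.071) without number 3. In CdxKO against T/BraKO they were Sox17 (-0.082), Gata4 (-0.11), Hhex (-0.037) and Noto (0.024) without number 1, and Sox17 (-0.014), Hhex (-0.015) and Chrd (0.11) without number 3. Depth limited Noto, which had at most 5 counts in any library.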
